A study of Mus musculus with 3072 samples.

Results

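Quiescent microglia were selected on read counts, as the cells of the count table without a single read of 17 marker genes of other microglial states. These were 10 genes of activated, plaque-associated microglia (Cst7, Clec7a, Itgax, Axl, Lpl, Ank, Csf1, Igf1, Spp1 and Fabp5), 4 interferon-response genes (Ifit1, Ifit2, Ifit3 and Isg15) and 3 genes of MHC class II (H2-Aa, H2-Ab1 and H2-Eb1). The rule kept 1019 of 1878 cells, and what follows describes how these cells still differed between genotypes. All cells came from male mice and were sorted singly as CD11b-positive, DAPI-negative events after enzymatic dissociation, and their polyadenylated RNA was read with a modified SmartSeq2 protocol. The 6 groups with counts were cortex of C57BL/6 (22.1% of the quiescent cells) and of C57BL/6-ApoeKO (19.4%), both at 18 months, APP/PS1 cortex (10.8%, 110 cells) and hippocampus (14.2%) at 17 months, and APP/PS1-ApoeKO cortex (15.8%) and hippocampus (17.7%, 180 cells) at 18 months. APP/PS1 mice (APPswe/PS1dE9) carry transgenes for mutant human amyloid precursor protein and presenilin 1 and form amyloid plaques with age. ApoeKO mice lack a functional Apoe gene from birth in every cell, and the double mutants came from a cross of these lines. Wells labelled APP/PS1 at 18 months were not used here.

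Microglia of the healthy adult brain depend on signalling through Csf1r and express a homeostatic set of surface proteins, among them P2ry12, Tmem119 and Cx3cr1. Around amyloid plaques they lower this set and switch on lipid, lysosomal and phagocytic genes through the receptor Trem2, and Apoe is among the genes that go up. Apolipoprotein E carries cholesterol and phospholipid between cells, and in the healthy brain most of it comes from astrocytes.

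The labels name no animals, so every group counted as 1 sample, the cells of a group were summed, and no test between a pair of groups was possible. Values are RPM, the reads of a gene in the summed cells scaled to 1000000 reads in all. Ratios are on the log2 scale after adding 0.5 RPM, and folds are ratios of plain RPM with exact 95% intervals, which cover counting error only, since the reads carry no molecular identifiers. Each group was spread over 2 sequencing lanes, which are technical parts and not replicates. Ranges over lane parts are given for a few genes only, and they can be far wider than the intervals. C57BL/6 and C57BL/6-ApoeKO shared their lanes and age. The APP/PS1 cells and the APP/PS1-ApoeKO cells were each in lanes of their own, and the APP/PS1 mice were 1 month younger than all others. So Apoe loss in APP/PS1 and amyloid with Apoe cannot be told apart from lane or age, nor amyloid without Apoe from lane. The genotypes are also different mouse lines, so none of these contrasts can be told apart from other differences between the lines.

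The summed quiescent cells held between 66224720 reads (APP/PS1 cortex) and 165311498 reads (C57BL/6). The median cell held 430888 to 761720 reads and 2068 to 2207 genes, and its share of 18S ribosomal reads was 8.01% to 11.4%, highest in the APP/PS1 tissues. Reads of all 4 microglial markers (P2ry12, Tmem119, Cx3cr1, Csf1r) were present in 1003 of the 1019 cells, and 2 cells had fewer than 3 of them. The lists of other cell types had these summed levels. The summed level of 8 border-associated macrophage genes was 2.85 to 8.22 RPM with Cd163 and Lyve1 at 0, and that of 7 T or NK cell genes was at most 0.0119 RPM with 5 at 0. Monocyte genes summed to 2.60 to 25.9 RPM, 92.8% of it from Ccr2, with Ly6c2 at 0. Astrocyte genes summed to 302.8 to 380.3 RPM, 96.7% of it Slc1a3, and oligodendrocyte genes to 119.6 to 209.9 RPM, 53.4% of it Cnp. B cell genes summed to 11.7 to 37.4 RPM, 98.7% of it Cd79b, and neuron genes to 0.179 to 15.95 RPM. Endothelial or mural genes summed to 2.79 RPM in APP/PS1 cortex and up to 34.02 RPM in the other groups, and neutrophil genes to 0 to 0.702 RPM. At most 4 cells held 3 or more genes of any such list, and the part of such cells in the results was not tested.

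Quiescent cells were least frequent in APP/PS1 cortex, at 35.4% of cells (exact 95% binomial interval 30.1% to 40.96%). They made up 69.02% of C57BL/6 cells, 63.3% of C57BL/6-ApoeKO cells, 53.1% of APP/PS1 hippocampus cells, 48.2% of APP/PS1-ApoeKO cortex cells and 56.1% of APP/PS1-ApoeKO hippocampus cells. These shares follow from the rule and are a description. Binomial intervals over cells, here and below, cover counting error within 1 sample and are no test between groups. A cell with fewer reads has fewer chances to show a marker read, and with every cell thinned to 100000 reads before the rule was applied the shares were 72.4%, 65.6%, 39.6%, 56.99%, 52.7% and 58.9%, listed as C57BL/6, C57BL/6-ApoeKO, APP/PS1 cortex, APP/PS1 hippocampus, APP/PS1-ApoeKO cortex and APP/PS1-ApoeKO hippocampus. That order is kept in every list of 6 values below. Just outside the rule lay cells with 1 to 10 reads of the 17 genes, 12.2% of the 859 other cells (16, 11, 19, 15, 24 and 20 cells).

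Genes were considered with at least 20 RPM and a read in at least 10% of cells in either group, counted without thinning. Few of them differed by 2-fold or more. With Apoe present, amyloid (APP/PS1 against C57BL/6 cortex) went with 5.46% of 6103 genes higher and 7.05% lower. With Apoe absent, amyloid went with 4.42% of 6062 genes higher and 3.46% lower. Apoe loss in C57BL/6 cortex went with 4.53% of 6010 genes higher and 3.13% lower. In APP/PS1 cortex Apoe loss went with 10.2% of 6203 genes higher and 5.26% lower, and in APP/PS1 hippocampus with 7.02% of 5983 higher and 5.38% lower. The excess of higher genes in APP/PS1 cortex depended on scaling: 65.9% of the 2-fold differences were higher in RPM and 45.7% (430 higher, 512 lower) with TMM scaling, which moved every log2 ratio of that comparison by -0.19. TMM factors also moved the split for amyloid with Apoe from 43.6% to 51.6% higher, and for amyloid without Apoe from 56.07% to 46.2%. Summing 1 lane part in place of 2 raised several of these counts by more than 1.5 times, to 16.5% of genes higher (1033) for Apoe loss in APP/PS1 cortex without lane 42 of APP/PS1 cortex. The amyloid comparisons use the same sums as the Apoe comparisons, so their values are given side by side.

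Apoe was read first, as a check of the labels and as a gene of activation outside the rule. Its level was 341.1, 4.80, 5451, 4387, 0.115 and 0.322 RPM. Quiescent cells of both APP/PS1 tissues were far above all others, although they carried no read of any activation marker in the rule. APP/PS1 cortex was 15.98-fold (15.8 to 16.1) above C57BL/6 cortex, and the log2 ratio over pairs of lane parts ran from 3.35 to 4.65. After thinning, an Apoe read was found in 80% of APP/PS1 cortex and 80.6% of hippocampus cells, against 24.4% of C57BL/6 cells (exact 95% interval 18.98% to 30.6%). At least 1000 Apoe RPM were reached by 78 of 110 APP/PS1 cortex cells (70.9%), 91 hippocampus cells (62.8%) and 25 C57BL/6 cells (11.1%). The median quiescent cell held 3170 RPM in APP/PS1 cortex, 2201 RPM in hippocampus and 0 RPM in C57BL/6. The cells outside the rule were higher still, at 17723 RPM in APP/PS1 cortex, 19995 RPM in hippocampus and 798 RPM in C57BL/6. In the cells just outside the rule Apoe was at 936, 0, 8016, 3942, 0 and 0 RPM.

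The knockout cells had almost no Apoe reads, as the labels state. In C57BL/6-ApoeKO 582 of 588 Apoe reads came from 2 cells, in APP/PS1-ApoeKO cortex 8 reads lay in 4 cells, and in its hippocampus 27 reads lay in 2 cells. No knockout cell reached 1000 RPM.

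**Figure D1:**
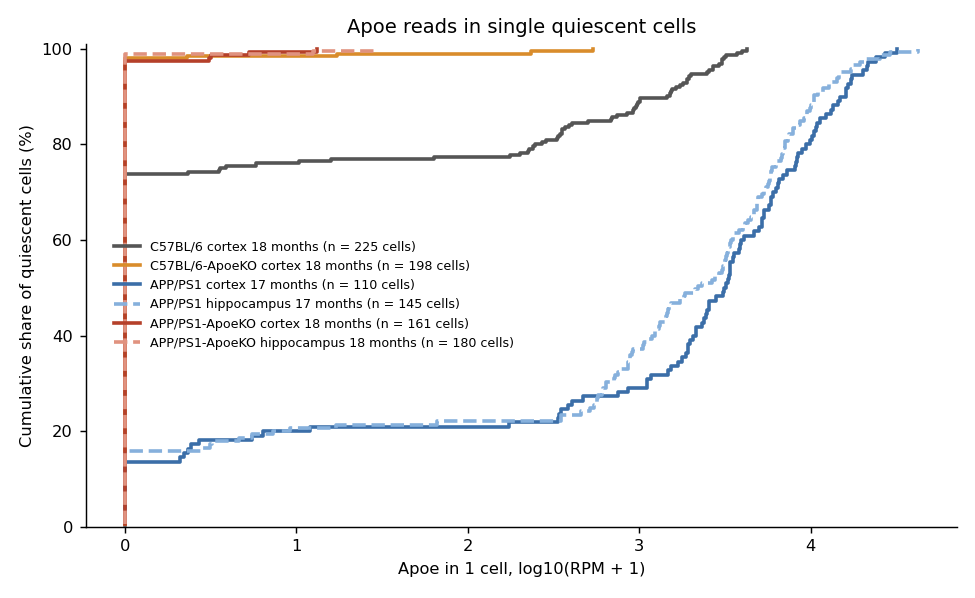
Cumulative share of quiescent cells (y axis, percent) by the Apoe level of the single cell (x axis, log10 of RPM + 1), 1 line per group. The lines of the APP/PS1 groups climb late (medians 3170 and 2201 RPM), the C57BL/6 line starts above 70% at 0, and the 3 knockout lines stay at 0 for nearly all cells.

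Apoe loss was compared in 3 pairs of groups that share no cells: C57BL/6 cortex, APP/PS1 cortex and APP/PS1 hippocampus. Cortex and hippocampus of a genotype may come from the same mice, and those of APP/PS1 shared lanes 41 and 42. The 3 pairs may therefore not be independent. Of 5308 genes measurable in all 3, 34 (0.641%) were at least 2-fold higher in the knockout every time and 17 (0.32%), Apoe included, were at least 2-fold lower. Of the 34 genes, 32 are protein coding, and they lie on 11 chromosomes. Among the other cells 16 of the 34 and 10 of the 17 met the same criterion, where 38 and 21 genes did in all. All knockout groups descend from 1 Apoe-null line, so Apoe loss and other alleles of that line cannot be told apart. Of the 34 higher genes 4 lie on chromosome 7, where Apoe lies at chr7:19696109-19699188 (GRCm38). Chromosomes 4 and 9 also hold 4 each, and chromosomes 3, 8 and 11 hold 5 each. Some of them lie close together. The 4 on chromosome 4 (Spsb1, Per3, Fam213b and Mib2) lie within chr4:149896283-155669198. Fcrls and Fcrl1 lie within chr3:87250758-87402934, and Slfn2 and Ccl9 within chr11:83065112-83578636. On chromosome 7, Lilra5 (from 4237754) and Gmfg (from 28437447) lie on either side of Apoe, and Trim12a and Trim30d further away. The share of all measured genes on each chromosome was not counted, and closeness was not tested.

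Several of the recurring genes were present in most knockout cells and in few others. Hpgd, which encodes the enzyme that inactivates prostaglandins (chr8:56294585-56321043), was at 35.4, 447, 12.99, 4.32, 417 and 528 RPM. All 3 knockout groups were above 400 RPM and all groups with Apoe under 40, and after thinning 63.98% to 76.5% of knockout cells held a read against 2.08% to 8.89% of the others. The knockout was higher by 12.6-fold (12.3 to 12.97) in C57BL/6 cortex, 32.1-fold (30 to 34.4) in APP/PS1 cortex and 122.04-fold (109.8 to 135.99) in hippocampus.

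Scoc, a short coiled-coil protein of the Golgi, was at 16.3, 200.6, 5.89, 10.8, 180.8 and 182.5 RPM. Again the knockout groups stood together, with a read in 70.2% to 75.98% of their thinned cells against 9.09% to 16% of the others. Clgn, a chaperone of the endoplasmic reticulum best known from testis, is the neighbouring gene (chr8:83389867-83428552, 1531 bases from Scoc at chr8:83430084-83458391). It had 0 reads in the quiescent cells of all groups with Apoe and 52.02, 35.3 and 32.2 RPM in C57BL/6-ApoeKO, APP/PS1-ApoeKO cortex and hippocampus. With a floor of 3 reads over a group, Clgn was at least 2866-fold, 779-fold and 867-fold higher in the knockout in the same order.

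Receptors were among the recurring genes. S1pr1, the receptor for sphingosine-1-phosphate, was at 20.98, 131.98, 39.2, 19.9, 199.6 and 133.3 RPM, and the knockout was 6.29-fold (6.06 to 6.53) higher without amyloid, 5.09-fold (4.89 to 5.32) in APP/PS1 cortex and 6.69-fold (6.35 to 7.05) in hippocampus. In the cells outside the rule, S1pr1 did not follow the same pattern: log2 ratios there were 2.90 without amyloid, 0.57 in APP/PS1 cortex and -0.08 in hippocampus. This difference between cell classes was not tested. Rtn4rl1, of the Nogo receptor family, was at 71.2, 237.8, 81.7, 83.5, 294.96 and 320.5 RPM. Sorl1, a sorting receptor for the amyloid precursor protein and an Alzheimer risk gene, was at 6.94, 35.3, 6.84, 1.16, 61.02 and 47.2 RPM. For both, the lowest knockout group lay above the highest group with Apoe.

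A group of recurring genes belongs to families known from the response to interferon and viruses. Bst2, tetherin, a membrane protein that retains budding virus, was at 6.62, 86.2, 7.19, 9.83, 69.2 and 54.9 RPM. The knockout was 13.01-fold (12.2 to 13.9) higher without amyloid, 9.63-fold (8.76 to 10.6) in APP/PS1 cortex and 5.59-fold (5.18 to 6.03) in hippocampus. Trim30d of the tripartite motif family had 46.9, 29.5 and 44.2 RPM in C57BL/6-ApoeKO, APP/PS1-ApoeKO cortex and hippocampus and at most 0.0907 RPM in the groups with Apoe. Trim12a, of the same gene cluster on chromosome 7 and 154547 bases away, had 61.6, 42.9 and 30.9 RPM in the knockout groups. With Apoe present, Trim12a had 1 read in each group. Slfn2 of the Schlafen family was higher in the knockout groups in a small share of cells, at 10.9, 51.3, 4.59, 4.76, 26.98 and 43.2 RPM with a read in 10.6% to 11.3% of thinned knockout cells. Slfn9, 73281 bases away on chromosome 11, had the opposite pattern, at 50.9, 0.817, 39.8, 47.8, 0.144 and 0.799 RPM.

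The promoters of Bst2, Trim30d and Slfn9 are shown because these 3 genes stand for both directions of the recurring difference and share an element of interferon-response promoters. Each line gives the 250 bases before the RefSeq start on GRCm38.p6, on the strand of the gene, and capitals mark GAAA, 2 bases, GAAA on either strand (TTTC, 2 bases, TTTC when it is on the other strand).
Bst2: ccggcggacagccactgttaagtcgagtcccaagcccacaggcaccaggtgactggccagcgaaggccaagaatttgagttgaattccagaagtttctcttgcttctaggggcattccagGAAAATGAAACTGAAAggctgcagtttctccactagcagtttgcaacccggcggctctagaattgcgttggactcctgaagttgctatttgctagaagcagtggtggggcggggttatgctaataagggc
Trim30d: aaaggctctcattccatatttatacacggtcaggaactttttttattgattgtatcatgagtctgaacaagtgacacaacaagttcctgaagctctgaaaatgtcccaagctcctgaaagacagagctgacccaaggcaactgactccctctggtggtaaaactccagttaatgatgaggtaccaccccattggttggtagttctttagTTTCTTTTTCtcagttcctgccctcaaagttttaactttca
Slfn9: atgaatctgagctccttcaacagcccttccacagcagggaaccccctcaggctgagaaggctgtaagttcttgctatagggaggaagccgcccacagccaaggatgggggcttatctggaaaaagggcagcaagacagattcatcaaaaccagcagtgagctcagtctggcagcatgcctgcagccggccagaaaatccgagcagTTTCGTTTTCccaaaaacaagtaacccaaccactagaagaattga
They lie at chr8:71537473-71537722, chr7:104507850-104508099 and chr11:82991831-82992080, all on the minus strand. Bst2 holds 2 overlapping copies of which the first begins 130 bases before the start and the next 6 bases on, Trim30d 1 copy 41 bases before it and Slfn9 1 copy 45 bases before it. The letters occur in 3.44% of all 32851 RefSeq windows of 300 bases, in a window of 3.99% of 27025 genes, in 5 of the 26 higher recurring genes with a window (19.2%) and in 1 of 10 lower ones (10%). They occur in 13 of 23 genes of the interferon list (56.5%). A match is a description of the letters and not of binding.

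The lower recurring genes had mixed functions. Arsb, lysosomal arylsulfatase B, was at 645, 273.8, 1053, 1054, 232.5 and 401 RPM, so that the knockout was lower by 2.36-fold (2.33 to 2.38) without amyloid, 4.53-fold (4.45 to 4.61) in APP/PS1 cortex and 2.63-fold (2.59 to 2.66) in hippocampus. Hbegf, a ligand of the epidermal growth factor receptor, was at 55.4, 8.09, 126.5, 111.5, 2.64 and 7.98 RPM. With Apoe present a read was seen in 22.7% to 39.1% of thinned cells, and in 0.621% to 1.54% of knockout cells. In APP/PS1-ApoeKO cortex 1 cell gave all Hbegf reads.

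Rps3a3, a processed pseudogene of a ribosomal protein gene which may share reads with near-identical copies, was at 72.1, 0.212, 78.4, 71.8, 0.288 and 0.0596 RPM and had a read in 66.2% to 72.7% of thinned cells with Apoe against 0.559% to 2.05% without. Colec12, a scavenger receptor, had 45.1, 38.4 and 59.5 RPM in the groups with Apoe and 0 reads in all 3 knockout groups, which allows at most 0.0245 to 0.0432 RPM there. A read was found in 7.56% of thinned C57BL/6 cells. Colec12 did not pass the filter in all 3 comparisons and is not counted among the 17 recurring genes.

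**Figure D2:**
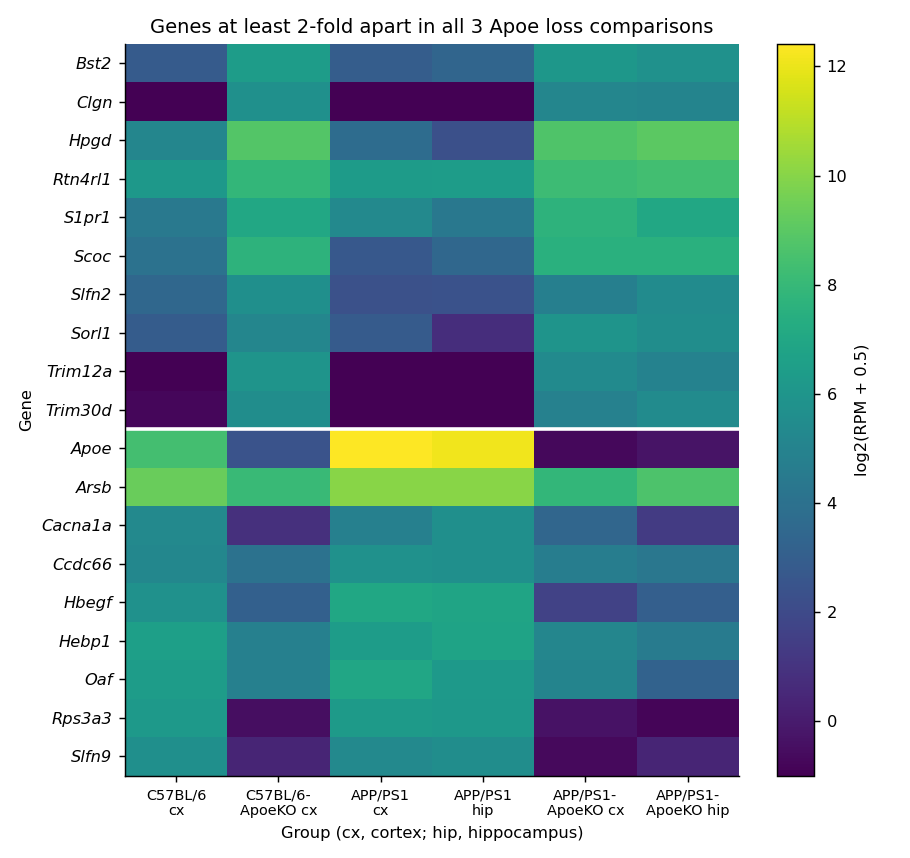
Levels of recurring genes in quiescent cells, coloured by log2(RPM + 0.5), with genes in rows and the 6 groups in columns (cx, cortex; hip, hippocampus). Genes above the white line are at least 2-fold higher in the knockout in all 3 comparisons and genes below it at least 2-fold lower; Clgn, Trim12a and Trim30d are dark wherever Apoe is bright.

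The homeostatic markers P2ry12, Tmem119 and Csf1r hardly moved, and the level of Cx3cr1 is not reported here. P2ry12, the purinergic receptor that guides microglial processes, was at 6808, 6101, 5690, 5649, 5360 and 6020 RPM. Tmem119 was at 3912, 3694, 4050, 4334, 3957 and 4494 RPM, and Csf1r at 7256, 7776, 7166, 8000, 7476 and 8823 RPM. P2ry12 was highest in C57BL/6, whereas Tmem119 and Csf1r were highest in APP/PS1-ApoeKO hippocampus, and the largest fold of these 3 genes in any comparison was 1.20, of P2ry12 for amyloid with Apoe. Over 24 homeostatic genes the median log2 ratio was -0.12 for amyloid with Apoe and -0.11 without it, and -0.01, 0.04 and 0.16 for Apoe loss in C57BL/6 cortex, APP/PS1 cortex and APP/PS1 hippocampus. With TMM scaling the value for APP/PS1 cortex was -0.15. Of all genes above the filter of 20 RPM and 10% of cells, the medians of the same comparisons were -0.05, 0.01, 0.04, 0.09 and 0.03. For amyloid with Apoe, the cells outside the rule had a homeostatic median of -0.37.

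Of the 24 homeostatic genes, Fcrls and Crybb1 reached 2-fold in a comparison, Crybb1 only as a lower level with Apoe loss in APP/PS1 cortex (log2 ratio -1.07). Fcrls, an Fc receptor-like protein used as a microglial marker, was at 1308, 3005, 483, 532, 2010 and 2074 RPM. The APP/PS1 groups were lowest and the 3 knockout groups highest. APP/PS1 cortex was 2.71-fold (2.68 to 2.74) below C57BL/6, while with Apoe absent the amyloid group was 1.49-fold (1.49 to 1.504) below its control. The knockout was 2.297-fold (2.29 to 2.31), 4.16-fold (4.11 to 4.21) and 3.89-fold (3.85 to 3.94) higher in C57BL/6 cortex, APP/PS1 cortex and APP/PS1 hippocampus. After thinning, 50.9% and 53.5% of APP/PS1 cells held an Fcrls read, 76.9% of C57BL/6 cells and 93.2% to 93.9% of knockout cells.

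Cst3, which encodes the secreted protease inhibitor cystatin C, was the most abundant of these genes at 72032, 45560, 66536, 68289, 42951 and 47644 RPM. The 3 knockout groups lay below the 3 others in every lane part. The fold was 1.58 (1.58 to 1.58) without amyloid, 1.55 in APP/PS1 cortex and 1.43 in hippocampus, and it stayed under the 2-fold line. At these levels Cst3 takes part in the scale of every other gene.

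**Figure D3:**
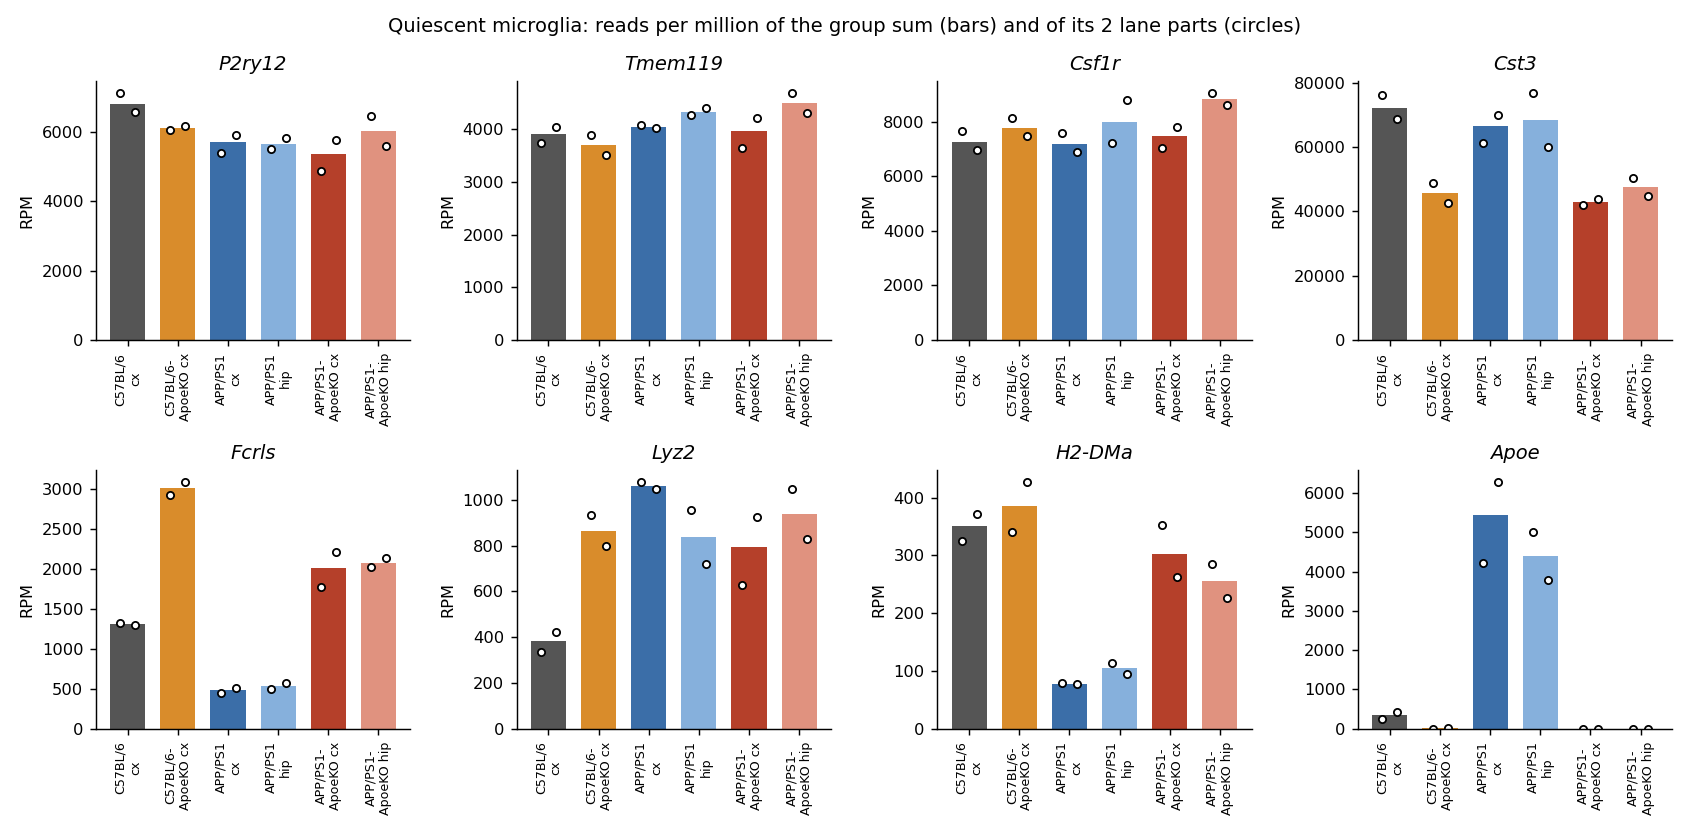
Levels of 8 genes in quiescent microglia, in RPM of the group sum (bars, y axis from 0) and of its 2 lane parts (circles), for the 6 groups (cx, cortex; hip, hippocampus). P2ry12, Tmem119 and Csf1r differ by at most 1.20-fold in any comparison, Cst3 is lower in the 3 knockout groups, and Fcrls and H2-DMa are lowest in the APP/PS1 groups where Apoe is highest.

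Activation genes that the rule did not use were only slightly higher with amyloid. The list held 30 such genes, 21 of them measured, Apoe included. Its median log2 ratio for amyloid with Apoe was 0.22 in quiescent cells and 0.82 in the cells outside the rule, and without Apoe it was 0.03 and 0.07. The list's median for Apoe loss in APP/PS1 cortex was -0.09 in quiescent cells and -0.61 in the others. Of 20 genes above the filter, 2 were at least 2-fold higher with amyloid when Apoe was present, Apoe and Lyz2, and 1 was lower, Ccl6.

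Lyz2, the lysozyme of myeloid cells, was at 383.2, 862, 1060, 837, 793 and 940 RPM. C57BL/6 had the lowest level, with a read in 36.9% of its thinned cells against 65.1% to 81.8% elsewhere. Amyloid went with 2.76-fold (2.74 to 2.79) more Lyz2 when Apoe was present, and Apoe loss alone with 2.25-fold (2.23 to 2.27) more. Trem2, the lipid-sensing receptor upstream of activation, was at 2039, 2280, 2774, 2846, 2606 and 2680 RPM, 1.36-fold (1.35 to 1.37) higher with amyloid and Apoe. Ctsd, a lysosomal protease, was at 5355, 6099, 6713, 6188, 5523 and 6583 RPM. Over 18 lysosomal genes the median log2 ratio was 0.23 for amyloid with Apoe and -0.08 without it.

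Of the 5 measured MHC class II genes outside the rule, 4 passed the filter in the comparisons with amyloid. Their list median was -0.56 for amyloid with Apoe, where Cd74, the invariant chain of class II, was at least 2-fold higher (log2 ratio 1.18, and 1.27 without Apoe) and H2-DMa lower. For Apoe loss it was -0.28 in C57BL/6 cortex, 0.26 in APP/PS1 cortex with H2-DMa higher, and 0.63 in hippocampus with H2-DMa and H2-DMb2 (5.60) higher and H2-Oa (-1.58) lower. H2-DMa is a subunit of the protein that loads peptide onto class II molecules. Its level was 351.2, 385, 77.5, 104.3, 303.3 and 256.1 RPM. The APP/PS1 tissues were low and the APP/PS1-ApoeKO tissues close to the mice without amyloid. APP/PS1 cortex was 4.53-fold (4.40 to 4.66) below C57BL/6, against 1.27-fold (1.25 to 1.29) for amyloid without Apoe. A read was found in 15.5% and 20.1% of thinned APP/PS1 cells and in 41.9% to 52.8% of all others. H2-DMb1, the partner subunit, was at 132.4, 107.1, 72.9, 67.3, 87.1 and 104.3 RPM, lowest in the same groups. The near-identical members of this family are H2-DMb1 and H2-DMb2, which can share reads.

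Class I genes were more even. H2-K1, which presents peptide to CD8 T cells, was at 319.6, 463, 301.9, 442, 579 and 747 RPM, and B2m, its invariant chain, at 2896, 3474, 2954, 2525, 4015 and 3645 RPM. Both were highest in an APP/PS1-ApoeKO group. None of the 10 class I and immunoproteasome genes above the filter differed by 2-fold in any comparison. Their list median for Apoe loss in APP/PS1 hippocampus was 0.53, and in APP/PS1 cortex 0.00 in RPM and -0.20 with TMM scaling.

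Interferon-response genes outside the rule leaned towards the knockout groups. The cells were chosen to lack Ifit1, Ifit2, Ifit3 and Isg15, so these levels describe what was left after that choice. Over 29 measured genes, the median log2 ratio for Apoe loss was 0.45 in C57BL/6 cortex, 0.89 in APP/PS1 cortex and 0.76 in hippocampus. The first of these rested on few cells: it was 0.18 without the cell that held most reads of each gene and 0.00 without lane 37 of C57BL/6-ApoeKO. The value of APP/PS1 cortex was 0.30 without lane 34 of APP/PS1-ApoeKO and 0.59 without lane 42 of APP/PS1, and that of hippocampus 0.50 without the cell that held most reads of each gene. In APP/PS1 cortex 6 of 16 genes above the filter were at least 2-fold higher and 0 lower, in hippocampus 6 of 15 higher and 1 lower (Ifih1), and in C57BL/6 cortex 3 of 13 higher and 1 lower (Slfn8). Of all genes, 10.2%, 7.02% and 4.53% were higher in the same comparisons, and in the cells outside the rule the list's medians were 0.71, 0.46 and 1.01. For amyloid the median was 0.15 with Apoe and 0.36 without.

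Bst2, described above, led this list, with a read in 23.5% to 32.9% of thinned knockout cells and 12.4% to 15.3% of the others. Lgals3bp, a secreted glycoprotein that binds galectins, was at 117.7, 343.03, 257.7, 219.2, 441 and 443 RPM. Unlike Bst2, it was also higher with amyloid in mice with Apoe, by 2.19-fold (2.15 to 2.23), and Apoe loss alone went with a 2.91-fold (2.87 to 2.96) higher level. With 1 lane part left out, its log2 ratio ran from 0.79 to 1.52 for amyloid with Apoe, so 2-fold was not always reached. For Apoe loss alone it ran from 1.31 to 1.73. Rtp4, a chaperone of membrane receptors, was at 9.18, 32.2, 27.9, 22.4, 52.9 and 57.2 RPM, highest in both APP/PS1-ApoeKO tissues.

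Not all of the list went this way. Slfn8 was at 97.8, 27.1, 103.4, 99.4, 65.7 and 71.5 RPM, lowest in C57BL/6-ApoeKO. Ifi44 was at 20.8, 14.5 and 10.7 RPM in C57BL/6, APP/PS1 cortex and APP/PS1 hippocampus and had 0 reads in all 3 knockout groups, although only 3.47% to 4.44% of thinned cells with Apoe held a read.

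Ccl12, a chemokine that attracts monocytes and is counted in the interferon list, was lower in the APP/PS1 tissues than anywhere else, at 37.8, 40.8, 6.89, 6.51, 46.6 and 29.1 RPM. APP/PS1 cortex was 5.49-fold (4.99 to 6.05) below C57BL/6, and with Apoe absent amyloid went with 1.14-fold (1.09 to 1.19) more. Ccl9, a chemokine of the same class, instead followed the Apoe genotype, at 48.9, 113.3, 52.9, 28.6, 124.8 and 184.5 RPM, with a read in 25.1% to 35.2% of thinned knockout cells and 8.33% to 11.8% of the others. The knockout was 2.32-fold (2.26 to 2.38), 2.36-fold (2.27 to 2.46) and 6.46-fold (6.18 to 6.75) higher in C57BL/6 cortex, APP/PS1 cortex and APP/PS1 hippocampus. Ccl3 was at 12.6, 12.1, 12.8, 11.4, 33.7 and 37.2 RPM, higher in the APP/PS1-ApoeKO groups alone.

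Over 11 measured cytokine and NF-kB feedback genes, the median log2 ratio for Apoe loss was 0.06 in C57BL/6 cortex, 0.74 in APP/PS1 cortex and 1.09 in hippocampus, with 3 of 6 and 3 of 7 genes at least 2-fold higher in the APP/PS1 tissues and 0 lower. That compares with 10.2% and 7.02% of all genes, and in the cells outside the rule the list's medians were -0.58 in APP/PS1 cortex and 0.99 in hippocampus. In C57BL/6 cortex 2 of 6 genes of the list were at least 2-fold higher and 0 lower, where 4.53% of all genes were higher. The list's median there was -0.22 in the cells outside the rule. A list of 12 measured immediate early and dissociation genes had a median for Apoe loss of 0.26 in C57BL/6 cortex, 0.46 in APP/PS1 cortex and 0.06 in hippocampus. Of its 7 genes above the filter, Junb and Klf6 (log2 ratio 1.01) were at least 2-fold higher in APP/PS1 cortex, and in hippocampus Junb was higher and Ier5 (-1.04) lower. Klf6 lay just above the 2-fold line, and TMM scaling moves the log2 ratios of APP/PS1 cortex by -0.19. Junb, a subunit of the transcription factor AP-1 that cell dissociation can raise within minutes, was at 105.2, 130, 39.8, 37.2, 170.99 and 166.2 RPM, lowest in the APP/PS1 tissues and highest in the APP/PS1-ApoeKO tissues, and in APP/PS1 the knockout was higher by 4.30-fold (4.12 to 4.48) in cortex and 4.47-fold (4.30 to 4.65) in hippocampus. With 1 lane part left out, the Junb log2 ratio for Apoe loss ran from 1.71 to 2.69 in APP/PS1 cortex and from 1.86 to 2.5 in hippocampus. Fos was at most 0.02 RPM. These groups were in different lanes and dissociations are not named in the labels, and the part of handling in these chemokine and Junb values was not tested.

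**Figure D4:**
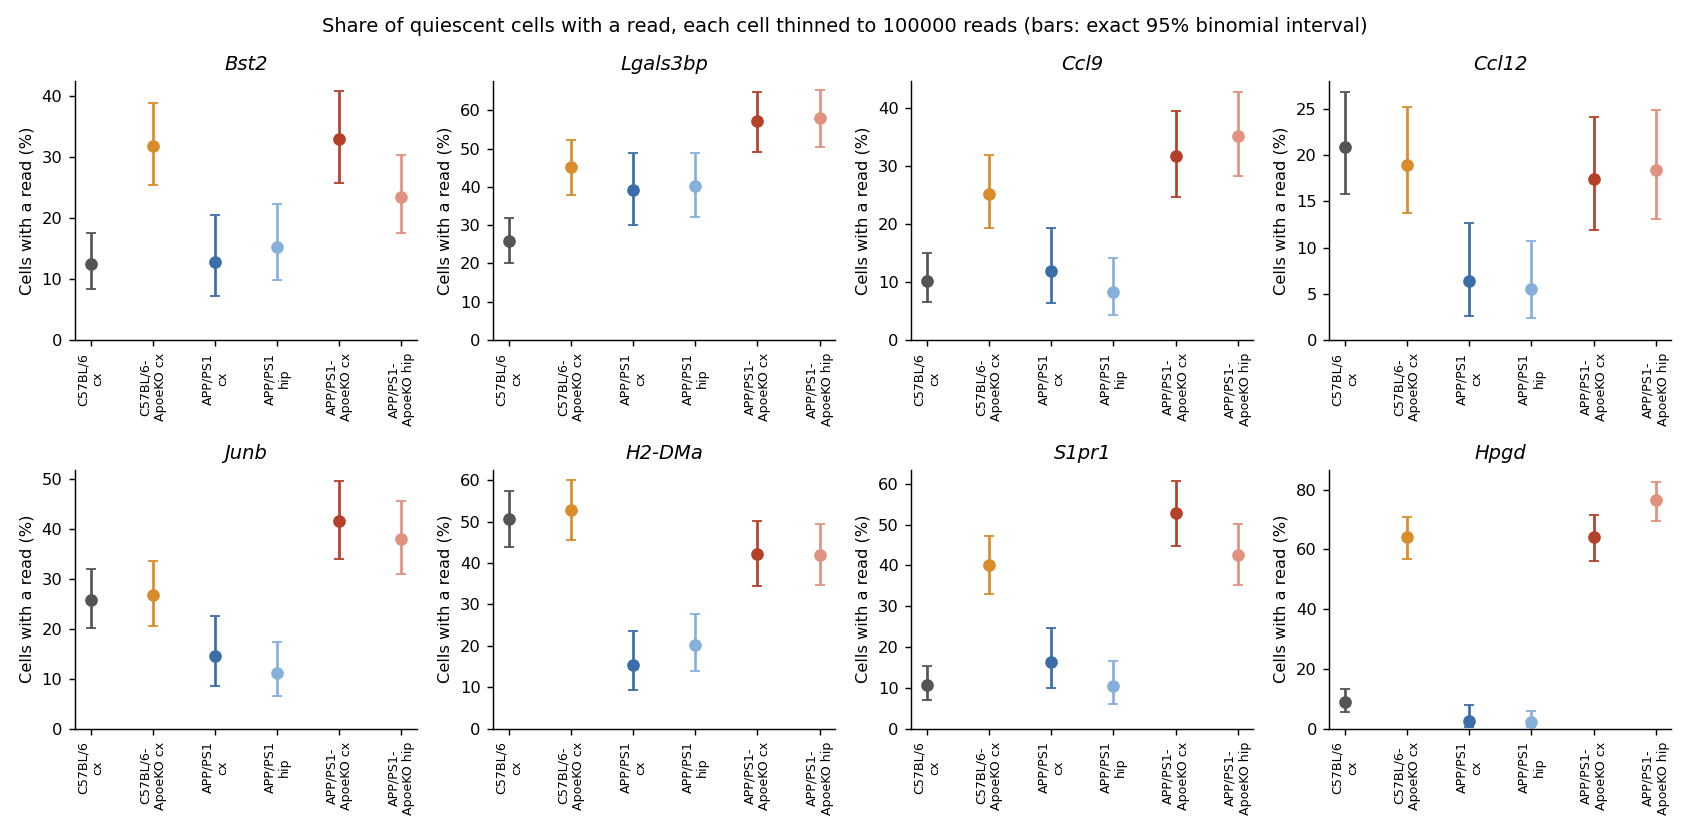
Share of quiescent cells with at least 1 read of a gene after each cell was thinned to 100000 reads (y axis, percent), with exact 95% binomial intervals, for 8 genes and 6 groups (cx, cortex; hip, hippocampus). Bst2, Ccl9, S1pr1 and Hpgd separate groups by Apoe genotype, while Ccl12, Junb and H2-DMa are lowest in the APP/PS1 groups, with Junb at 14.5% and 11.1%.

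Abca1 and Abcg1, transporters of cholesterol export, had their higher levels without Apoe. Abca1, which passes cholesterol to apolipoprotein E, was at 440, 661, 494, 509, 791 and 638 RPM, and Abcg1, which works with it, at 210.9, 346.7, 164.9, 168.06, 346.7 and 275.2 RPM. Every knockout group lay above every group with Apoe for both genes. The knockout was higher by 1.504-fold (1.49 to 1.52), 1.603-fold (1.58 to 1.63) and 1.254-fold (1.24 to 1.27) for Abca1 in C57BL/6 cortex, APP/PS1 cortex and APP/PS1 hippocampus. For Abcg1 the folds were 1.64 (1.62 to 1.67), 2.10 (2.06 to 2.15) and 1.64 (1.60 to 1.67). Lrp1, an endocytic receptor of apolipoprotein E, was at 516, 689, 524, 540, 862 and 828 RPM, likewise higher in each knockout group. Npc1, which moves cholesterol out of lysosomes, was at 254.97, 153.9, 280, 275.8, 228.9 and 187.9 RPM and lower in each. Of 10 lipid genes above the filter Abcg1 was the only one at least 2-fold apart for Apoe loss in APP/PS1 cortex, and none was for Apoe loss in C57BL/6 cortex or APP/PS1 hippocampus. The Abcg1 log2 ratio in APP/PS1 cortex ran from 0.85 to 1.22 with 1 lane part left out, and TMM scaling moves it by -0.19. It therefore did not reach 2-fold under every setting. Over the 11 measured lipid genes the median log2 ratios for Apoe loss were 0.05, 0.20 and 0.33 in the same order, and 0.01 in APP/PS1 cortex with TMM scaling.

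Glycolysis genes leaned towards the knockout in C57BL/6 cortex and in APP/PS1 hippocampus, where 11 of 14 genes were higher and 3 lower in each. In APP/PS1 cortex 8 were higher and 6 lower. The share of all genes that were higher by any amount was not counted. Over 14 genes the median log2 ratio for Apoe loss was 0.44 in C57BL/6 cortex and 0.21 in APP/PS1 hippocampus, and in APP/PS1 cortex 0.07 in RPM and -0.12 with TMM scaling. The value of C57BL/6 cortex was 0.37 with TMM scaling, and 0.63 in the cells outside the rule. Aldoa, the aldolase of muscle and immune cells, was lowest in C57BL/6 and at 455, 222.4, 215.1, 368.8 and 327.9 RPM in the other groups, 2.63-fold (2.60 to 2.67) higher with Apoe loss alone. It was the 1 gene of 13 above the filter that reached 2-fold there, where 4.53% of all genes were higher. Gapdh was at 229.3, 378.8, 145.7, 132.1, 216.5 and 245.7 RPM, highest in C57BL/6-ApoeKO and lowest in the APP/PS1 tissues.

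**Figure D5:**
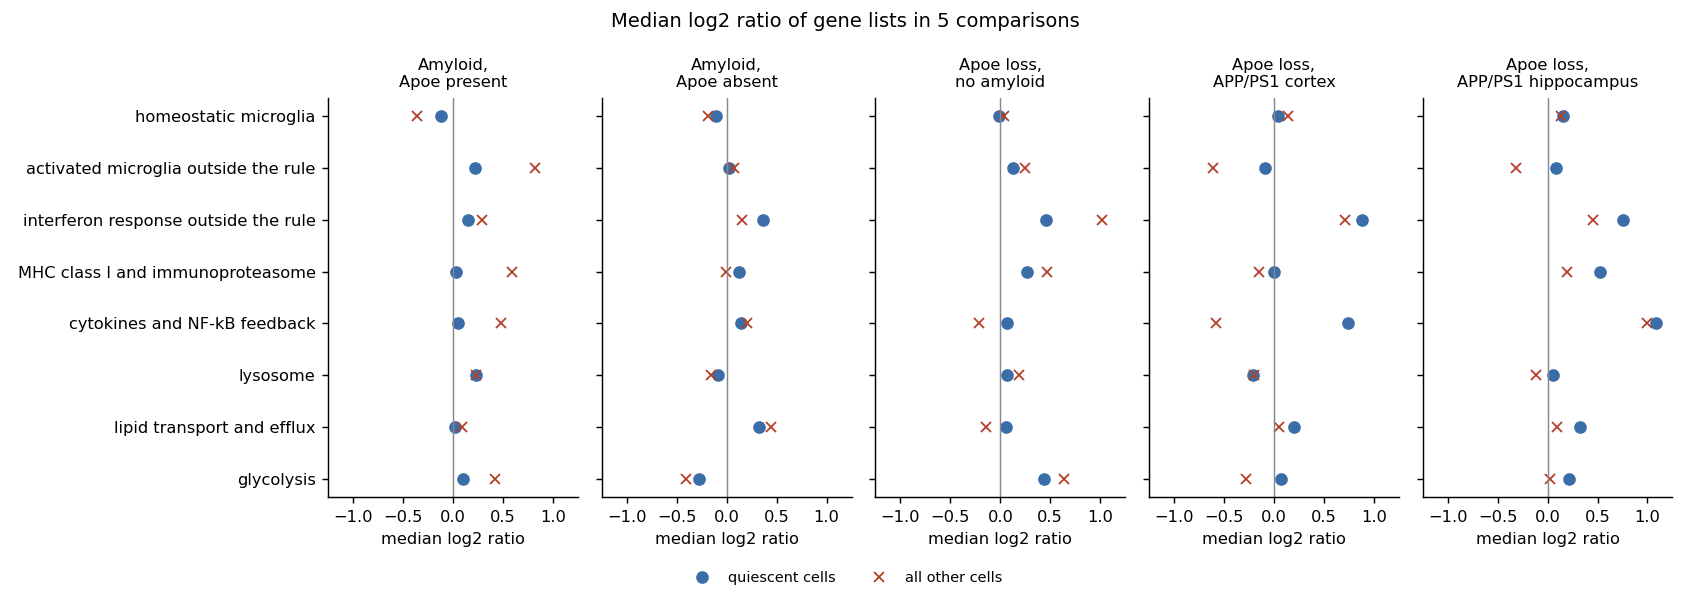
Median log2 ratio (x axis) of 8 gene lists in quiescent cells (circles) and in all other cells (crosses), 1 panel per comparison. With amyloid and Apoe the activated list is at 0.22 in quiescent cells and 0.82 in the others, a contrast that can follow from the selection of cells. For Apoe loss in both APP/PS1 tissues the interferon list lies to the right in quiescent and other cells (0.71 and 0.46 in the others). The cytokine list does so in quiescent cells of both tissues, and in the other cells in hippocampus (0.99) but not in cortex (-0.58).

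A few genes marked single groups or lines. Spint1, an inhibitor of membrane-bound proteases, had 0 reads in C57BL/6 and 256.7, 159.2, 137.1, 233.9 and 215.97 RPM in the other groups. Shroom4, an actin-binding protein, was at 43.1 RPM in C57BL/6, with a read in 15.6% of thinned cells, and had 0 reads in all others. Ets1, a transcription factor, was at 32.02, 80.5, 0.0151, 0, 75.96 and 81.4 RPM, so it was missing from the APP/PS1 tissues but not from the double mutants. Fhad1 was instead highest in the APP/PS1 tissues, at 8.09, 6.83, 105.2, 81.3, 11.8 and 6.94 RPM. Tfrc, the transferrin receptor that takes up iron, was at 12.4, 13.01, 0.0755, 12.7, 478 and 10.4 RPM: APP/PS1-ApoeKO cortex had the highest level, with a read in 21.1% of thinned cells against 0.909% to 4.47% elsewhere.

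Few genes went in opposite directions under the same contrast. For amyloid with against without Apoe, 38 of 5534 genes (0.687%) were at least 2-fold apart in opposite directions and 45 (0.813%) in the same one. For Apoe loss in APP/PS1 cortex against hippocampus the shares were 0.611% and 3.14% of 5565, and for Apoe loss with against without amyloid in cortex 24 (0.43%) and 95 (1.7%) of 5582.

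A fit over the 6 sums with terms for Apoe loss, amyloid and tissue left 2 residual degrees of freedom. By edgeR's quasi-likelihood test with Benjamini-Hochberg adjustment, 0 of 16239 genes (0%) passed an adjusted p of 0.05 for Apoe loss and 0 (0%) for amyloid, while 1061 and 610 had an unadjusted p under 0.05. The lowest adjusted p for Apoe loss was 0.0592, of Trim12a and 1 predicted gene, and for amyloid it was 0.949. Scoc had an adjusted p of 0.0743, Rps3a3 0.0601, S1pr1 and Rtn4rl1 0.102 each, Bst2 0.261, Fcrls 0.270 and Cst3 0.334. On the same sums DESeq2 called 849 genes for Apoe loss (5.61% of 15125, 496 of them higher) and 1.57% of 14722 for amyloid, 87 of them higher.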

How the data were processed

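Single microglia of 6 groups were read by SmartSeq2, and the deposited table holds whole-number read counts per gene and cell, not normalised by the authors. Per the submitters' processing notes, STAR 2.5.2, featureCounts 1.5.1, Seurat 2.3.1 and mm10 were used. The strand setting and the counting of overlapping and multi-mapping reads are not given in the sources used here. Neighbours that overlap and near-identical copies may therefore have exchanged reads. All 1878 columns matched 1 labelled well by name and 0 did not. No cells were identical (0 pairs). For all 165 APP/PS1-ApoeKO cortex cells of lane 33, 74 of them quiescent, the labels give no depth. They were kept, and left out as an alternative, which is the same as leaving out that lane part.

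Counts of the 1019 quiescent cells were summed per group (29474 genes) and scaled to RPM. Log2 ratios had 0.5 RPM added, and ratios of counts had exact 95% intervals. A gene was considered in a comparison with at least 20 RPM and a read in at least 10% of unthinned cells in 1 of its groups. List medians used genes with at least 1 RPM on average. The shares of cells with a read given in the text came from cells thinned to 100000 reads, leaving out 5 shallower cells. A gene with 0 reads was set against a floor of 3 reads over the group. Differential expression over the 6 sums used edgeR 4.0.16 (quasi-likelihood test, TMM factors) and DESeq2 1.42.0 as an alternative, in R 4.3.3. Genes called that way had an adjusted p under 0.05. Self-tests on simulated data recovered 41 of 200 changed genes with edgeR for the Apoe comparison over 16239 genes, 192 of them with the right sign. Coordinates are from GENCODE vM21 on GRCm38 and promoters from RefSeq on GRCm38.p6.

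Named genes were members of the gene lists, the 5 largest log2 ratios in each direction per comparison among genes at least 2-fold apart, and the 10 genes in each direction with the largest smallest ratio in all 3 Apoe loss comparisons. Names of predicted genes, of pseudogenes marked -ps, of mitochondrial genes and of spike-ins were left out of the text, and a few other genes that the rule names are not reported here. The rule, the lists and the genes were chosen with earlier results of these data known, and 1 list of 13 knockout genes comes from an earlier analysis of all cells of these data. Alternatives were TMM scaling, other pseudocounts and filters, means of single cells, thinned cells, other cell filters, leaving out the cell with most reads per gene and leaving out each lane part.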

Additional observations from a re-analysis of the deposited data

Results flagged for a closer look

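For 4 of the named genes the same contrast went opposite ways in a pair of settings, with both lane parts of each group on the same side. Genes that were not named were not searched with this condition on lane parts. The difference between the settings was not tested, since each group is 1 sample. Dhcr7, the last enzyme of cholesterol synthesis, had a log2 ratio for amyloid in cortex of 1.64 with Apoe and -1.33 without it, from 13.6 and 43.3 RPM in C57BL/6 and APP/PS1 cortex and 26.3 and 10.1 RPM in the matching knockouts. Smo, the signal transducer of the hedgehog pathway, had -5.34 with Apoe and 1.19 without it. Cenpf, a centromere protein of dividing cells, had 1.5 with Apoe and -3.20 without it, and for Apoe loss in cortex -2.74 with amyloid and 1.96 without. Ifih1, a sensor of viral RNA, had a log2 ratio for Apoe loss in APP/PS1 of 1.91 in cortex and -1.30 in hippocampus.

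All 4 were read in few quiescent cells. After thinning, the highest share of cells with a read in any group was 10.9% for Dhcr7, 10.6% for Smo, 11.8% for Cenpf and 15.5% for Ifih1, and 1 cell gave 54.3% of the Cenpf reads of APP/PS1-ApoeKO cortex. In the cells outside the rule the same ratios were 0.59 and 0.25 for Dhcr7, 0.46 and 1.92 for Smo, and 0.49 and 0.51 for Ifih1.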

How the results depend on the processing

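Without a filter on low values, more genes were at least 2-fold apart: 1904 higher and 3099 lower (10.1% and 16.5% of genes considered) for amyloid with Apoe, 2374 and 2257 (12.4% and 11.8%) for amyloid without Apoe, and 2531 and 2120 (13% and 10.9%), 3588 and 1814 (19.6% and 9.89%), and 2777 and 2027 (15% and 11%) for Apoe loss in C57BL/6 cortex, APP/PS1 cortex and APP/PS1 hippocampus, with 1.91% and 1.03% recurring in all 3. A filter of 5 RPM gave 30 recurring lower genes (0.507%). Without the 74 cells that have no depth in the labels, which are lane 33 of APP/PS1-ApoeKO cortex, amyloid without Apoe gave 7.45% and 5.61%. TMM scaling gave 512 lower genes (8.3%) for Apoe loss in APP/PS1 cortex.

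Leaving out 1 lane part at a time summed fewer cells and gave 6.85% to 8.99% higher and 8.8% to 13.6% lower genes for amyloid with Apoe, 6.84% to 8.09% and 4.81% to 7.86% for amyloid without Apoe, and 5.73% to 8.22% and 4.79% to 5.99%, 12.6% to 16.5% and 6.7% to 9.14%, and 8.5% to 11.5% and 7.27% to 8.71% for Apoe loss in the order above. The highest counts came without lane 42 of APP/PS1 cortex (553 and 837 genes for amyloid with Apoe), lane 42 of APP/PS1 hippocampus (703 higher) and lane 38 of C57BL/6 (498 higher). The recurring genes numbered 30 to 41 higher (0.567% to 0.773%) and 15 to 21 lower (0.285% to 0.397%). edgeR called 3 genes (0.0145%) for Apoe loss without its count filter and 0 to 1 gene (0% to 0.00563%) for either term with 1 of the 6 sums left out (1 for Apoe loss without C57BL/6 or C57BL/6-ApoeKO cortex, 1 for amyloid without the latter). DESeq2 called 849 genes (5.61%) and 1.57%.

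Of the named 2-fold values, 92% to 100% stayed at least 2-fold under the alternatives that keep both lanes, and none changed sign. Without 1 lane part, 83.8% to 92.1% stayed at least 2-fold. The cells of unknown depth are those of lane 33 of APP/PS1-ApoeKO cortex, so leaving them out removes 1 lane part. Wdr70 for Apoe loss in APP/PS1 cortex, 1.14, was -0.40 without them. Other values that changed sign without 1 lane part included Nfkbiz (1.13 to -0.32) and Sirt3 (1.28 to -0.22). The causes were not tested. Depth limits genes with reads in few cells, and intervals cover counting error only. No paired analysis was possible because each group is 1 sum and well and lane numbers name no animal.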

Other observations

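Knockout genes known from an earlier analysis of all cells of this series were read again in the quiescent cells alone. Their list of 13 was chosen on these data, so its direction is not independent evidence. For Apoe loss 8 of 12 were at least 2-fold higher and 3 lower in each APP/PS1 tissue, and 9 of 12 higher and 3 lower in C57BL/6 cortex. The list's median log2 ratio was 3.58, 3.07 and 2.42 in C57BL/6 cortex, APP/PS1 cortex and APP/PS1 hippocampus, against -0.02 and -0.15 for amyloid with and without Apoe.

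The complement and TGF-beta signalling lists had small medians. Over 7 complement genes the median log2 ratio was 0.14 and -0.09 for amyloid with and without Apoe, and 0.10, -0.07 and 0.33 for Apoe loss in C57BL/6 cortex, APP/PS1 cortex and APP/PS1 hippocampus. Over 11 TGF-beta genes it was 0.22, 0.05, 0.10, 0.16 and -0.07 in that order. C5ar1, the receptor of complement fragment C5a, was the 1 complement gene to reach 2-fold, lower for Apoe loss in APP/PS1 cortex (log2 ratio -1.15). Of the TGF-beta genes, Tgfb1 was higher (1.37) and Smad3 lower (-1.12) for amyloid with Apoe, Smad2 (-1.13) and Bmpr1a (-1.12) lower for Apoe loss in APP/PS1 cortex, and Acvr1 higher (1.04) for Apoe loss in C57BL/6 cortex. Atp6v1a, a subunit of the proton pump that acidifies lysosomes, stood out of the lysosomal list, at 73.4 RPM in C57BL/6, 47.2 in C57BL/6-ApoeKO, 18.0 in APP/PS1 cortex, 52.8 in APP/PS1 hippocampus, 86.5 in APP/PS1-ApoeKO cortex and 111.9 in APP/PS1-ApoeKO hippocampus.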
